A study of Mus musculus with 2 samples.

Results

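The 10 genes of the bone morphogenetic protein (BMP) pathway described here were followed through the cells of the young mouse testis: the ligands Bmp2 and Bmp4, the receptors Bmpr1a, Bmpr1b and Bmpr2, the inhibitory SMADs Smad6 and Smad7, and the ID genes Id1, Id2 and Id3. They were picked by symbol from the 32285 genes counted. Smad6 entered because of its large difference between the libraries in Sertoli cells, so the values from that comparison describe the choice and support nothing. Whole testes of C57BL/6 males, 13 days old, had been dissociated and run as 10x 3' V3 single-cell libraries. There was 1 library from a control and 1 from a conditional knockout. Control testes had 1 normal copy of Psma7 beside a floxed one (Psma7 F/+). Knockout testes paired the floxed copy with a null one and added Stra8-Cre (Psma7 F/-;Stra8-Cre KI/+). Psma7 encodes a subunit of the proteasome core, and Stra8-Cre is a Cre that acts in germ cells. The genotype gives 1 null copy to every cell of the knockout, somatic cells included, and the control's label gives no Cre. How many animals each suspension held is not given. With 1 library per genotype nothing below could be checked in replicates or tested, and each 95% interval covers counting error only.

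BMPs are secreted ligands that bring together type I receptors such as BMPR1A and BMPR1B and the type II receptor BMPR2. The activated receptors phosphorylate SMAD1, SMAD5 and SMAD9, which enter the nucleus with SMAD4 and act on target genes. The ID genes are classic targets and encode proteins that hold basic helix-loop-helix factors off DNA. SMAD6 and SMAD7 block the pathway, SMAD6 mainly the BMP branch and SMAD7 the BMP and TGF-beta branches, and both are themselves induced by the signal. In the postnatal testis BMP4 is known as a cue for the differentiation of spermatogonia.

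The libraries gave 10737 control and 10589 knockout cells, with medians of 8046 and 5395 UMIs per cell, and 28 cell barcodes occurred in both. Cells were clustered and named by marker genes. A class name below means resemblance by transcripts, as in Sertoli-like. The 8 classes compared were undifferentiated spermatogonia (513 control and 282 knockout cells), differentiating spermatogonia (2214 and 118), Sertoli cells (3842 and 6537), Leydig cells (235 and 199), peritubular myoid cells (855 and 777), interstitial stromal cells (1741 and 2262), endothelial cells (88 and 64) and macrophages (117 and 126). Germ cells entering meiosis numbered 1056 (control) and 0 (knockout). Psma7 checked the labels: it was at 237 CPM in control and 86.6 CPM in knockout Sertoli cells, and lower in the knockout library in all 8 classes. CPM are counts per 1000000 UMIs of the class. Which exons are floxed is not given, so the 3' tag may lie outside the deleted part. RNA free in the suspension, read from barcodes with 10 to 100 UMIs, made up at most 6.49% of the control and 4.78% of the knockout Sertoli UMIs by the markers of other classes. The members were richer in the free RNA of the knockout library, for example Id3 with 184 CPM in control and 603 CPM in knockout free RNA. For the other classes the upper limit was read from the 16 Sertoli markers, so transcripts of these made by the class itself would raise it. In Leydig cells it was 33.6% in control and 22.4% in the knockout. The most that free RNA could give is printed beside several low values below.

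The DNA before the RefSeq start sites was read for motifs. RefSeq start sites on GRCm38.p6 were available for 7 of the 10 members. Motifs tied to SMAD proteins, 3 in all, were searched on both strands of the 250 bases before each start. They were the palindrome GGCGCC and the short SMAD-binding element CAGAC. The last was the GC-rich element GCCGNCGC, which can overlap the palindrome. Of 32851 promoter windows of this length, 9.59% held GGCGCC, 42.2% held CAGAC and 6.89% held GCCGNCGC. Smad6, the member with the largest ratio in Sertoli cells, is shown with its whole window, chr9:64022060-64022309 on the minus strand, which held 0 matches of each of the 3 motifs, as did the Bmp4 window. The Bmpr1a window held 1 GGCGCC and 3 GCCGNCGC matches, and that of Bmpr2 held 1 GGCGCC. In the Bmpr1a window the GCCGNCGC matches 203 and 201 bases before the start overlapped each other and the GGCGCC match at 198 bases. For Id2, Id3 and Bmpr1b only the match, in capitals, and up to 10 bases on each side are shown.
Smad6 window: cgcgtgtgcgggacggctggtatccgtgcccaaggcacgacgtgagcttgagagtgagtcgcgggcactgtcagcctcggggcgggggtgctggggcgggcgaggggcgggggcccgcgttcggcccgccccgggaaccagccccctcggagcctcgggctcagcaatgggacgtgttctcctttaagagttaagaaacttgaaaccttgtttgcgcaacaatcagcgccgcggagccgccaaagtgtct
Id2 GGCGCC match: aggccccctgGGCGCCcagcgcacac
Id3 CAGAC match: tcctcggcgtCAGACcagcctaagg
Id3 reverse CAGAC match: acccttggcgGTCTGttttgaataa
Bmpr1b CAGAC match: tgtatttcttCAGACaagcctcata
The Id2 stretch shown lies at chr12:25096308-25096333 on the minus strand, with its match 231 bases before the start. The Id3 stretches lie at chr4:136143645-136143669 and chr4:136143744-136143768 on the plus strand, with matches 167 and 68 bases before the start. These windows are not all outside the genes: GENCODE M21 places 250 of 250 bases of the Id3 and Bmpr2 windows, 161 of the Id2 window and 141 of the Bmpr1a window in exons of the same gene, against 0 of the Smad6 window. The Bmpr1b stretch lies at chr3:141982378-141982402 on the minus strand, with its match 128 bases before the first of the gene's 3 RefSeq starts. A reverse CAGAC match, 245 bases before the second Bmpr1b start, is not shown. A match describes letters in a window and shows neither a bound site nor a cause.

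The ligands were found mainly in cells outside the seminiferous epithelium. Bmp4 (ENSMUSG00000021835, mm10 chr14:46383520-46390669) was at 64.6 CPM in control peritubular myoid cells, the contractile layer around the tubule, and at 75.5 CPM in the knockout. Endothelial cells held 38.8 and 52.6 CPM and interstitial stromal cells 35.1 and 34.8 CPM of Bmp4. These 3 lay above the other classes compared in both libraries. In Sertoli cells Bmp4 was at 0.618 and 1.10 CPM, near the 0.415 and 0.739 CPM that free RNA could account for. Bmp2 (ENSMUSG00000027358, chr2:133552159-133562885) was highest in Leydig cells, the steroid-producing cells of the interstitium, at 91.5 CPM (interval 82.0 to 102) in control against 82.0 CPM (73.9 to 90.6) in the knockout. Within the interstitial stromal class Bmp2 was uneven: cluster 13, which Vcam1 led, held 50.2 and 49.9 CPM, and cluster 2 held 5.01 and 8.24 CPM. Bmp2 gave 11 and 26 UMIs in all Sertoli cells and 9 and 4 in undifferentiated spermatogonia, under the 30 UMIs required to count a gene as measured.

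**Figure D1:**
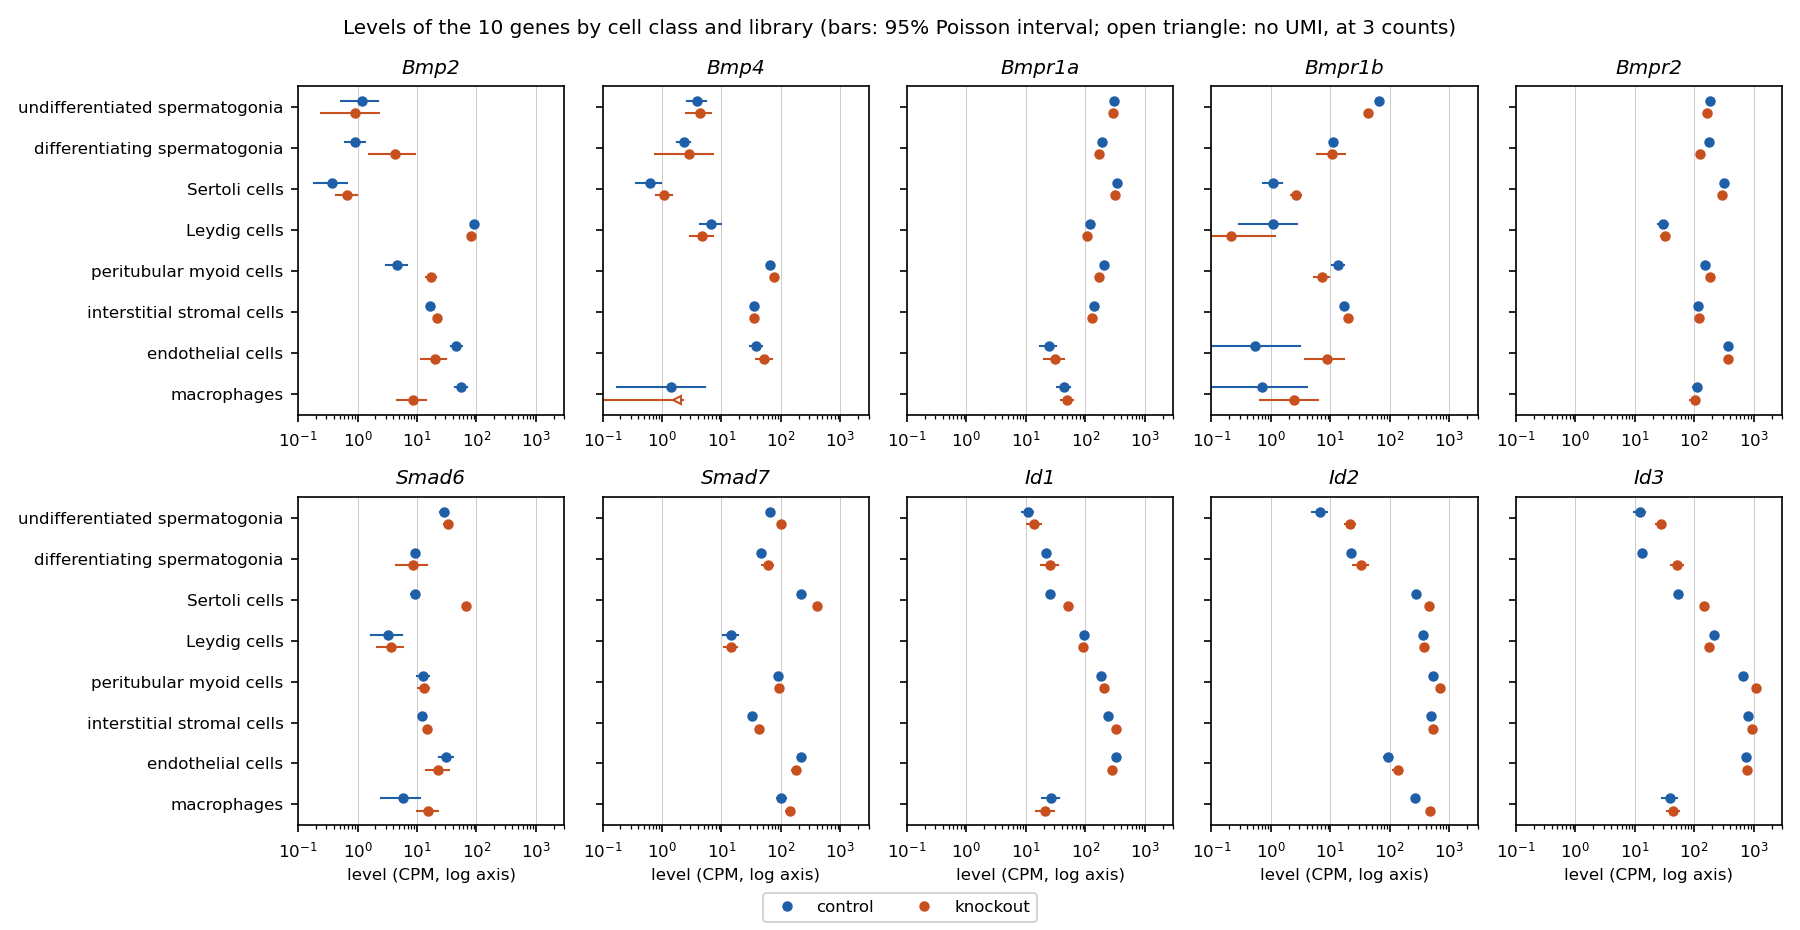
Level of each of the 10 genes in the 8 cell classes, in CPM on a log axis, with points for the control (blue) and knockout (orange) library and bars for the 95% Poisson interval; an open triangle at 3 counts stands for no UMI. Bmp4 is highest in peritubular myoid cells and Bmp2 in Leydig cells in both libraries, and the widest gap for Smad6 is in Sertoli cells.

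The receptors were spread more widely, with high levels in the tubule itself. Bmpr1a (ENSMUSG00000021796, chr14:34410734-34503341), a type I receptor, was highest in Sertoli cells, with 344 CPM in control (338 to 351) against 315 CPM in the knockout (309 to 320). Undifferentiated spermatogonia came next, with 298 and 290 CPM of Bmpr1a. Peritubular myoid cells (206 and 173 CPM) and differentiating spermatogonia (194 and 172 CPM) had overlapping intervals in each library. The type II receptor Bmpr2 (ENSMUSG00000067336, chr1:59763400-59879014) was highest in endothelial cells, at 373 and 375 CPM, followed by Sertoli cells at 316 and 294 CPM. Leydig cells held the least Bmpr2 of the compared classes, 30.3 and 32.4 CPM. The upper limit for free RNA there, 48.2 and 35.8 CPM, exceeded these levels and so is too high. The part of free RNA in Leydig Bmpr2 was not tested. Bmpr1b (ENSMUSG00000052430, chr3:141837136-142169425), the other type I receptor, was highest among the 8 compared classes in undifferentiated spermatogonia, at 65.0 CPM in control (59.4 to 70.9) against 43.8 CPM in the knockout (37.9 to 50.5). Outside those classes, a cluster that took no class name, with 18 control and 191 knockout cells and Bmpr1b among its leading genes, held 279 and 304 CPM.

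Bmpr1b was lower at each later germ cell stage of the control: 65.0 CPM in undifferentiated spermatogonia, 11.1 CPM in differentiating spermatogonia and 1.72 CPM in cells entering meiosis. Bmpr1a followed the same order with 298, 194 and 88.9 CPM. Bmpr2 did not, with 187 and 175 CPM in the spermatogonia and 299 CPM (291 to 307) at meiotic entry. Smad6 was at 28.4, 9.38 and 0.631 CPM over the same stages, and Smad7 at 65.9, 46.4 and 6.42 CPM. Thinned to 2000 UMIs per cell, 5.80% of control undifferentiated spermatogonia had a Smad6 UMI (29 of 500 cells) against 0 of 1001 cells entering meiosis, which allows a share of up to 0.300% at that depth. Without thinning, 9 of 1056 of the latter cells (0.852%) had a Smad6 UMI.

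In Sertoli cells, the somatic cells that nurse the germ cells, both inhibitory SMADs and the 3 ID genes were higher in the knockout library. Smad6 (ENSMUSG00000036867, chr9:63953076-64022059 on the minus strand) was at 9.14 CPM in control (8.07 to 10.3, 266 UMIs) against 67.1 CPM in knockout cells (64.5 to 69.7, 2633 UMIs). Its log2 ratio was 2.87 (2.69 to 3.06), a 7.33-fold higher level. Free RNA could account for at most 0.296 and 1.68 CPM of it. At 2000 UMIs per cell, 1.87% of the control cells (67 of 3580) and 12.3% of the knockout cells (736 of 5967) had a Smad6 UMI, with 262 and 570 shallower cells left out. Without thinning the shares were 5.73% and 25.9%. Leydig cells were the lowest in Smad6 of the compared classes. Their thinned shares were 0.435% (1 of 230 cells, interval 0.01 to 2.40) and 0.510% (1 of 196 cells, interval 0.01 to 2.81). Their median depths were 14922 and 22257 UMIs against 5088 and 4105 in Sertoli cells.

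Smad7 (ENSMUSG00000025880), which also blocks TGF-beta receptors, was at 218 CPM in control against 403 CPM in knockout Sertoli cells. Its log2 ratio was 0.88 (0.84 to 0.93). Id3 (ENSMUSG00000007872, chr4:136143497-136145755) was at 53.3 and 148 CPM (log2 ratio 1.48, interval 1.40 to 1.56), and free RNA could give at most 11.9 and 28.8 CPM. Id1 (ENSMUSG00000042745, chr2:152736251-152737410) was at 25.8 and 51.7 CPM (log2 ratio 1.00, interval 0.88 to 1.13). That ratio lies on the 2-fold line and passed it under 6 of 16 alternatives. Id2 (ENSMUSG00000020644, chr12:25093799-25097140) was at 274 and 463 CPM (log2 ratio 0.76, interval 0.72 to 0.79). The share of cells with an Id3 UMI at 2000 UMIs per cell was 9.72% in control against 24.7% in the knockout.

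Receptor levels in Sertoli cells were close in both libraries: Bmpr1a had a log2 ratio of -0.13 (-0.17 to -0.09) and Bmpr2 of -0.11 (-0.14 to -0.07). Bmpr1b was scarce, at 1.10 CPM with 32 UMIs and 2.65 CPM with 104 UMIs (log2 ratio 1.25, interval 0.68 to 1.89), and free RNA could give 0.533 and 0.597 CPM. In cluster 14 alone, a Sertoli cluster filled by both libraries, its log2 ratio was 0.30. Of the 10 members, 9 had at least 30 UMIs in the higher library and 4 of these (Smad6, Id3, Bmpr1b and Id1) were at least 2-fold higher, with 0 at least 2-fold lower. Of all 15826 genes measured in Sertoli cells, 8.08% were at least 2-fold higher and 3.88% at least 2-fold lower. Since Smad6 was picked on this contrast, nothing is read from the members' share. The median log2 ratio was 0.88 over the 9 members and 0.04 over all measured genes. Id1 lay just inside the 2-fold line, and Smad7 at 0.88 and Bmp4 at 0.80, the latter with 18 and 43 UMIs, just outside it.

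**Figure D2:**
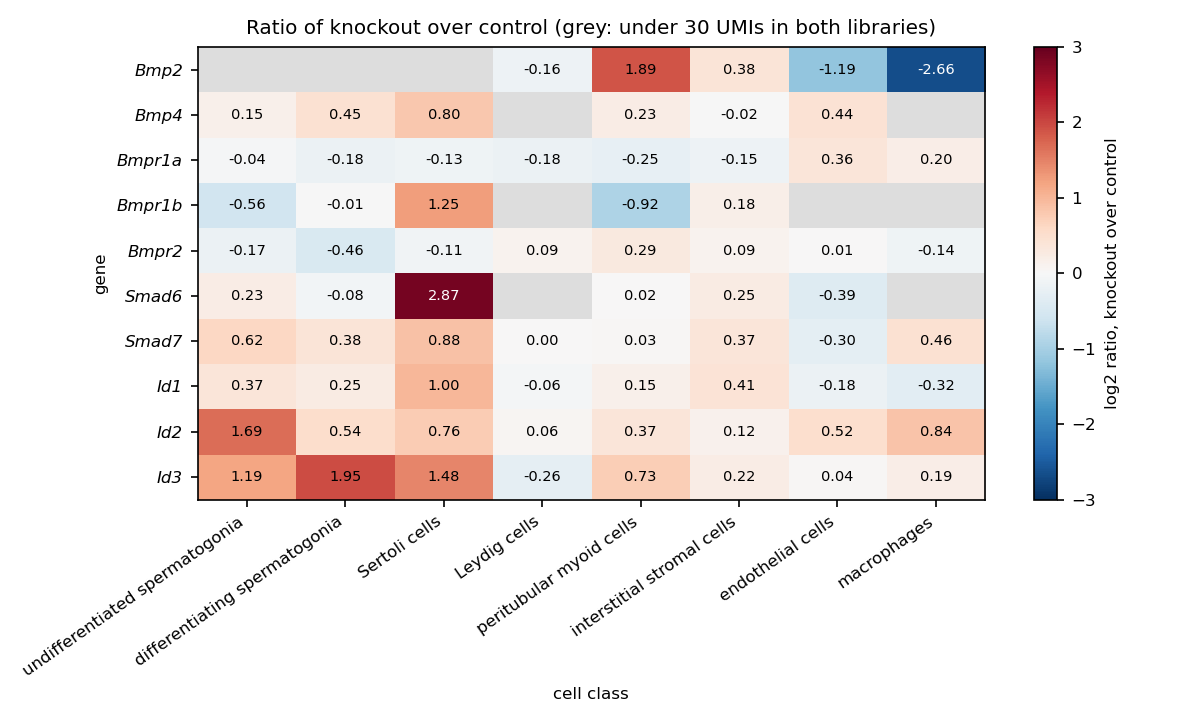
Log2 ratio of knockout over control for each gene (rows) and cell class (columns), red where higher and blue where lower in the knockout library, grey where both libraries had under 30 UMIs. The darkest red cell is Smad6 in Sertoli cells at 2.87, and Bmp2 runs from 1.89 in peritubular myoid cells to -2.66 in macrophages.

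Different clusters held most Sertoli cells of each library. Clusters 8, 9 and 10 held 24.3%, 25.2% and 23.1% of the control's Sertoli cells and 1.02%, 0.352% and 0.229% of the knockout's. Clusters 0, 1, 4 and 5 held 30.5%, 22.0%, 17.0% and 15.1% of the knockout's and 1.54% to 3.49% of the control's. Over the 11 Sertoli clusters, Smad6 was higher in the knockout library in 11, Smad7 in 11, Id3 in 10, Id1 in 8 and Id2 in 8. These counts describe the comparison that chose Smad6, and clusters 20, 9 and 10 had only 8 control, 23 knockout and 15 knockout cells. In the 8 clusters with at least 50 cells of each library, control levels of Smad6 ran from 3.23 to 12.2 CPM. Knockout levels there ran from 23.8 to 82.7 CPM, and the log2 ratios from 1.86 to 3.80. For Smad7 the levels ran from 74.3 to 386 and from 122 to 542 CPM. The clusters are parts of the same libraries and of the cells on which Smad6 was chosen, so nothing is read from these ranges.

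Cluster 14, with 322 control and 347 knockout cells, sets near-equal numbers side by side. It is part of the comparison that chose Smad6, so its Smad6 values describe that choice. There Smad6 was at 9.60 CPM in control against 50.7 CPM in knockout cells (log2 ratio 2.39, interval 2.0 to 2.82). Id3 was at 71.4 and 196 CPM (log2 ratio 1.45), and Smad7 at 128 and 208 CPM, a ratio of 0.70. Id2 was at 208 and 240 CPM, a ratio of only 0.21 (0.10 to 0.31), so the Id2 gap was smaller in this cluster than over all Sertoli cells. Bmpr1a was at 302 and 288 CPM and Bmpr2 at 291 and 297 CPM.

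**Figure D3:**
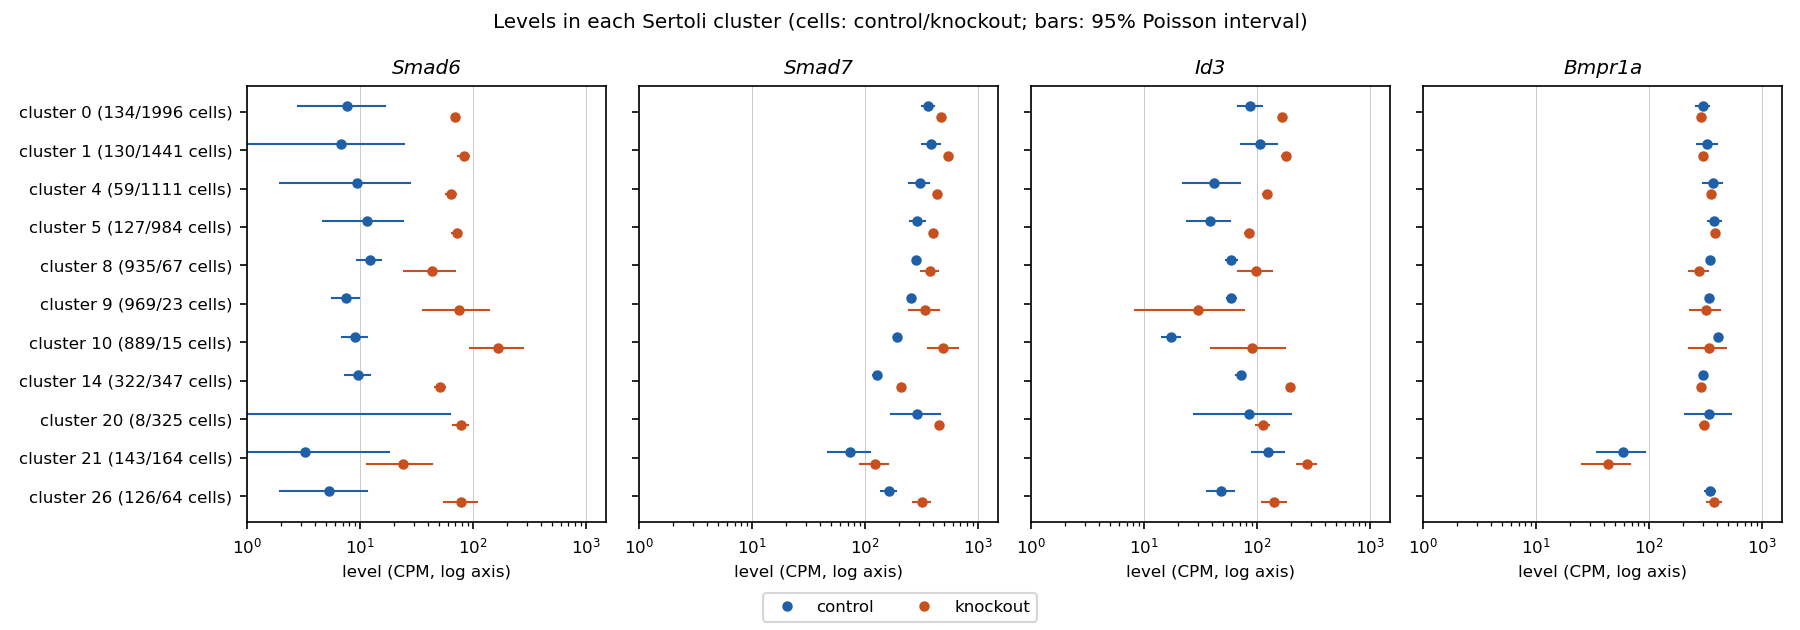
Level of Smad6, Smad7, Id3 and Bmpr1a in each of the 11 Sertoli clusters, in CPM on a log axis, with the number of control and knockout cells beside each cluster and bars for the 95% Poisson interval; in cluster 20 the 8 control cells gave no Smad6 UMI, so only the bar is drawn. Smad6 is higher in the knockout library in every cluster shown, while Bmpr1a points lie close together.

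The Smad6 gap was present in dividing and non-dividing and in deep and shallow Sertoli cells. These groups are parts of the cells on which Smad6 was chosen, so their values describe that choice and support nothing. Dividing Sertoli cells (264 control and 549 knockout) had 6.76 and 60.7 CPM of Smad6, a log2 ratio of 3.15, and non-dividing cells (3578 and 5988) had 9.76 and 68.5 CPM, a ratio of 2.81. Sertoli cells with at least 10000 UMIs (742 and 716) had 8.51 and 62.9 CPM, a ratio of 2.88. Those with under 3000 UMIs (683 and 1801) had 13.5 and 70.8 CPM, a ratio of 2.36. Id2 varied with depth inside each library: the control was at 507 CPM in the shallow and 232 CPM in the deep cells, the knockout at 792 and 288 CPM. Its ratio was 0.64 in the shallow and 0.31 in the deep cells.

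Immediate-early genes, which dissociation of a tissue can induce, were also higher in knockout Sertoli cells. Of 23 measured, 21 were higher and 10 at least 2-fold higher in the knockout library, with a median log2 ratio of 0.95 and a summed level of 4183 CPM in control against 7913 CPM in the knockout. Their part in the member ratios was not tested. The 16 Sertoli markers summed to 10091 and 11319 CPM, with 1 at least 2-fold higher and 1 at least 2-fold lower.

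The wider pathway list held 78 further genes, of which 58 were measured in Sertoli cells. Of these, 8 were at least 2-fold higher and 3 at least 2-fold lower in the knockout library, against 8.08% and 3.88% of 15826 measured genes. The median log2 ratio of the 58 was 0.21. The difference from all genes was not tested. Amh, the anti-Müllerian hormone of immature Sertoli cells and a ligand that signals through BMP type I receptors, was at 61.7 and 286 CPM (log2 ratio 2.21, interval 2.14 to 2.29). Acvrl1, a type I receptor of the same family, was at 5.70 and 21.7 CPM (ratio 1.93, interval 1.69 to 2.18). Atoh8, a reported BMP target, was at 0.584 and 2.80 CPM (17 and 110 UMIs), a ratio of 2.23 (1.52 to 3.09). Tob1, an antiproliferative protein that binds SMADs, was at 229 and 485 CPM (ratio 1.08, interval 1.04 to 1.12). Also at least 2-fold higher were Inhba (1.88), which encodes an activin subunit, Smad9 (1.43) and Tgfbr3 (1.05). Inhba and Smad9 were scarce. Inhba was at 0.721 and 2.70 CPM (21 and 106 UMIs, interval 1.22 to 2.65). Smad9 was at 0.584 and 1.60 CPM (17 and 63 UMIs, interval 0.67 to 2.32). The part of free RNA in these low levels was not tested. The 3 lower genes were Hey1 (-1.92), a Notch and BMP target, Tgfb2 (-1.40) and Bmper (-1.13), which encodes a secreted BMP-binding protein.

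By role, 4 of 4 measured ligands were higher in knockout Sertoli cells, 1 of them at least 2-fold. Of 10 other receptors and co-receptors, 8 were higher, 2 at least 2-fold. Of 6 receptor-activated and common SMADs, 2 were higher and 4 lower, with 1 at least 2-fold higher. Of 8 antagonists, 4 were higher and 4 lower, and of 9 SMAD regulators, 4 were higher and 5 lower. Of 7 other reported target genes, 4 were higher and 3 lower, with 1 past 2-fold in each direction. Of 14 genes of the TGF-beta and activin branch, 9 were higher and 5 lower, with 2 at least 2-fold higher and 1 at least 2-fold lower. Across all 15826 measured genes 53.4% were higher, 8.08% at least 2-fold higher and 3.88% at least 2-fold lower.

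**Figure D4:**
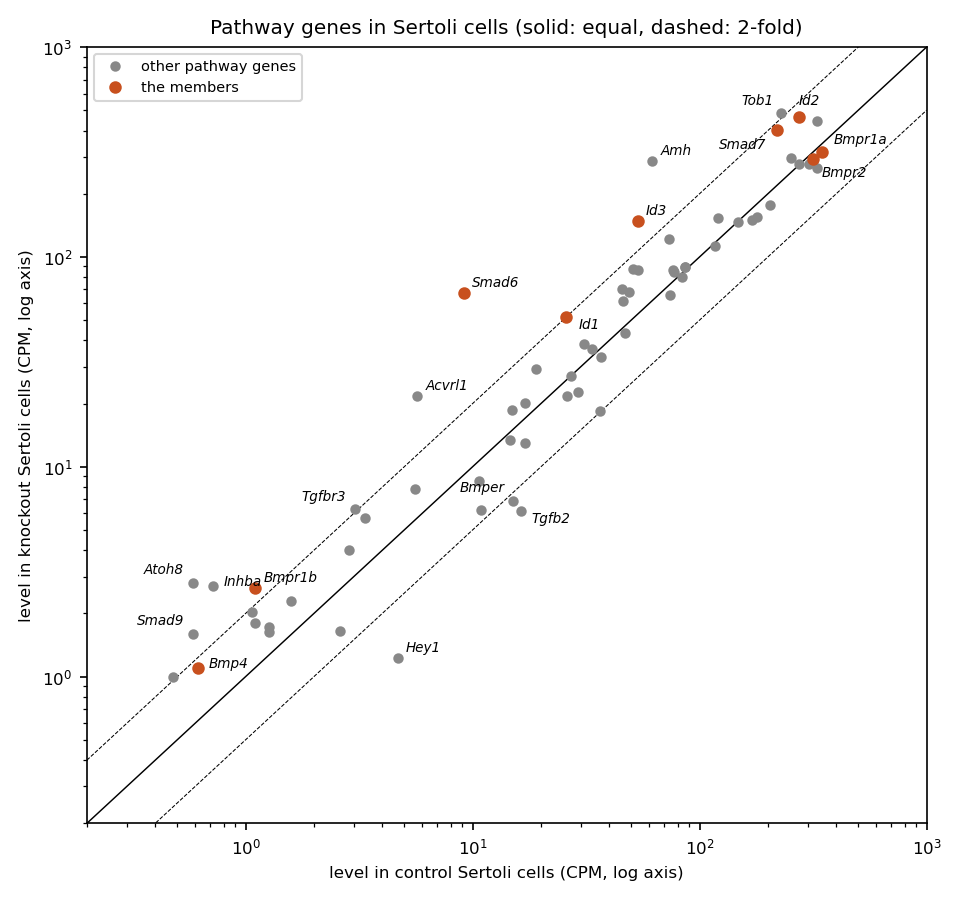
Level in control (x axis) against knockout (y axis) Sertoli cells for the measured members (orange) and the other measured pathway genes (grey), in CPM on log axes, with a solid line of equal levels and dashed lines at 2-fold. Smad6, Amh and Acvrl1 lie above the upper dashed line, Bmpr1a and Bmpr2 close to the line of equal levels, and Hey1 below the lower dashed line.

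In undifferentiated spermatogonia, which include the stem cells of the germ line, Smad6 was at 28.4 CPM in control against 33.2 CPM in knockout cells (log2 ratio 0.23, interval -0.08 to 0.54). Smad7 was at 65.9 and 101 CPM (ratio 0.62, interval 0.43 to 0.81). Bmpr1b was lower (ratio -0.56, interval -0.81 to -0.33), and Bmpr1a had a ratio of -0.04 (-0.14 to 0.06). Id2 was at 6.64 and 21.5 CPM (ratio 1.69, interval 1.19 to 2.21), and Id3 at 12.1 and 27.6 CPM (ratio 1.19, interval 0.79 to 1.59). These levels lay close to what free RNA could give, 6.19 and 18.5 CPM for Id2 and 8.41 and 26.2 CPM for Id3. With the measured share of free RNA subtracted, the Id3 ratio was -1.34. The Id2 ratio was then 2.59, from 0.466 and 3.11 CPM, too few UMIs to count as measured.

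Of 9 measured members in undifferentiated spermatogonia, 2 were at least 2-fold higher and 0 at least 2-fold lower, against 4.67% and 2.99% of 13667 measured genes. Sertoli markers were higher in 13 of 15 measured, with sums of 193 and 353 CPM, and immediate-early genes in 22 of 22. Their part in the ID ratios was not tested. Of 48 measured pathway genes, 7 were at least 2-fold higher and 2 at least 2-fold lower. The highest ratios were Amh, at 1.17 and 10.6 CPM (3.12), and Msx1, a homeobox BMP target, at 4.56 and 15.8 CPM (1.79). The lowest were Chrdl1, a secreted BMP antagonist, at 25.0 and 8.81 CPM (-1.49), and Rgma, a BMP co-receptor, at 24.5 and 9.72 CPM (-1.32).

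In differentiating spermatogonia the knockout library had only 118 cells, and cluster 3 held 1201 control but 13 knockout cells, so the stages compared differ in mix. Id3 was at 13.5 and 51.8 CPM (log2 ratio 1.95, interval 1.56 to 2.30), and 15 of its 73 knockout UMIs came from 1 cell. Free RNA could give 7.05 and 30.6 CPM of it. Within cluster 11, with 783 and 48 cells, Id3 was at 16.0 and 40.0 CPM. In cluster 22, with 230 and 57 cells of low median depth (1904 and 1693 UMIs), it was at 16.7 and 145 CPM. Bmpr2 was at 175 and 128 CPM (ratio -0.46, interval -0.68 to -0.25), and Smad6 at 9.38 and 8.51 CPM with 12 knockout UMIs and at most 0.175 and 1.78 CPM from free RNA. Of 9 measured members, 1 was at least 2-fold higher and 0 at least 2-fold lower, against 14.1% and 4.59% of 16192 measured genes. All 15 measured Sertoli markers were higher, with sums of 162 and 413 CPM, and the median gene stood at 0.12. Immediate-early genes were higher in 23 of 23, 11 of them at least 2-fold, with sums of 974 and 1779 CPM. The part of both lists in the Id3 ratio was not tested. Of 58 measured pathway genes, 11 were at least 2-fold higher and 0 lower. The extremes were Fstl1, a follistatin-like secreted protein, at 2.07, Tgif1, a SMAD corepressor, at 1.98, Acvr1b at -0.76 and Fstl3 at -0.74.

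Among the 8 compared classes, peritubular myoid cells had the highest Id2 in both libraries and the highest Id3 in the knockout. Id3 was at 662 and 1100.3 CPM there (log2 ratio 0.73, interval 0.68 to 0.79), and Id2 at 533 and 690 CPM, a ratio of 0.37. Bmp2 was at 4.61 CPM (25 UMIs) and 17.3 CPM (111 UMIs), and its ratio was 1.89 (1.27 to 2.60). Within cluster 16, Bmp2 was at 6.42 and 22.5 CPM, and within cluster 7 at 3.07 and 5.20 CPM. The UMIs came from 14 of 855 control and 40 of 777 knockout cells. Smad6 was at 12.7 and 13.0 CPM (ratio 0.02, interval -0.45 to 0.51), and Bmpr1b at 13.7 and 7.18 CPM (ratio -0.92, interval -1.49 to -0.38). Of 10 measured members, 1 was at least 2-fold higher and 0 lower, against 1.68% and 1.44% of 11763 measured genes. Among pathway genes the extremes were Amh (2.91), Smad3 (1.05), which transmits TGF-beta signals, Rgmb (-0.52) and Chrdl1 (-0.41). Immediate-early genes were higher in 21 of 23, with sums of 17595 and 26258 CPM, and their part was not tested.

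Interstitial stromal cells had 0 of 10 members past 2-fold, against 1.55% of 14900 measured genes higher and 0.872% lower. Id1 was at 243 and 322 CPM (log2 ratio 0.41, interval 0.36 to 0.46), Id3 at 814 and 949 CPM and Smad7 at 33.0 and 42.8 CPM. Immediate-early genes were higher in 20 of 23 there, with sums of 21616 and 25990 CPM, and Sertoli markers in 12 of 15, with sums of 570 and 726 CPM. Their part in these ratios was not tested. Smad6 was at 12.3 and 14.6 CPM (ratio 0.25, interval 0.01 to 0.49). Cluster 17, led by Postn and collagen genes, held more Smad6 than the class as a whole, 42.7 and 35.6 CPM, and more Bmpr1b, 76.0 and 58.0 CPM. In cluster 2, with 744 control and 689 knockout cells, Smad6 was at 6.78 and 15.3 CPM (ratio 1.17, interval 0.66 to 1.72), and Id1 at 247 and 415 CPM. The highest pathway ratio was that of Amh (2.28), and the lowest were Acvr1c (-1.19) and Nog (-0.53), a secreted BMP antagonist with 34 and 43 UMIs.

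Leydig cells also had 0 of 7 measured members past 2-fold, against 1.34% of 10708 measured genes higher and 1.22% lower. Bmp2 had a log2 ratio of -0.16 (-0.37 to 0.06), and Id1, at 96.9 and 93.1 CPM, one of -0.06 (-0.26 to 0.15). Id3 was lower in the knockout library, at 212 and 177 CPM (ratio -0.26, interval -0.40 to -0.12). Immediate-early genes were higher in 20 of 22 measured, with sums of 14581 and 19542 CPM, and their part was not tested. Smad7 was at 14.3 and 14.4 CPM. The upper limit for free RNA, 23.3 and 43.2 CPM, exceeded these levels and so is too high, and the part of free RNA was not tested. Among pathway genes Tgfb1 had a log2 ratio of 0.99, Bmp7 of -0.67 and Rgma of -0.61.

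Endothelial cells had high Id3 and Id1 in both libraries, with Id3 at 741 and 761 CPM and Id1 at 322 and 285 CPM. Id2 was lower there than in any other compared class but the spermatogonia, at 95.1 and 136 CPM (ratio 0.52, interval 0.17 to 0.85). Of 9 measured members, 1 was at least 2-fold lower and 0 higher, against 1.21% and 1.58% of 8120 measured genes. That member was Bmp2, with 45.9 CPM (84 UMIs) in control against 19.7 CPM (18 UMIs) in the knockout (log2 ratio -1.19, interval -2.04 to -0.47). A single control cell held 59 of the 84 UMIs, and without the cell richest in Bmp2 in each library the levels were 14.2 and 15.4 CPM, a ratio of 0.14. Bmp2 UMIs were seen in 11 of 88 control and 8 of 64 knockout cells. Smad6 was at 30.6 and 23.0 CPM (ratio -0.39, interval -1.21 to 0.33), and 19 of its 56 control UMIs came from 1 cell. Pathway extremes were Bmp6 (0.85), Fstl1 (0.80), Nbl1 (-1.17) and Smad3 (-0.84). Immediate-early genes were higher in 5 and lower in 17 of 22 measured, with sums of 19166 and 17958 CPM, and their part was not tested.

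Macrophages had 1 of 7 measured members at least 2-fold lower, against 1.96% of 8102 measured genes. Bmp2 was at 55.4 CPM (77 UMIs) and 8.51 CPM (14 UMIs), and its log2 ratio was -2.66 (-3.64 to -1.87). Here too 1 control cell held 45 of the UMIs, and without the richest cell of each library the levels were 23.3 and 6.73 CPM, a ratio of -1.75. Bmp2 UMIs were seen in 9 of 117 and 8 of 126 cells, so the shares of positive cells were 7.69% (3.58 to 14.1) and 6.35% (2.78 to 12.1). Id2 was at 266 and 478 CPM (ratio 0.84, interval 0.67 to 1.03). Immediate-early genes were higher in 10 and lower in 12 of 22 measured, with sums of 15009 and 15003 CPM, and their part was not tested. Pathway extremes were Amh (1.84), Tgfbr3 (0.64), Pmepa1 (-0.37) and Amhr2 (-0.33).

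Amh, a Sertoli cell product, was among the 2 highest pathway ratios in undifferentiated spermatogonia, peritubular myoid cells, interstitial stromal cells and macrophages. Its levels there in the knockout library, from 8.33 to 26.7 CPM, compare with 286 CPM in knockout Sertoli cells, and the part of free RNA in them was not tested. The Smad6 ratio over a whole class had an upper bound of 0.54 in undifferentiated and 0.69 in differentiating spermatogonia, 0.51 in peritubular myoid, 0.49 in interstitial stromal and 0.33 in endothelial cells. Macrophages and Leydig cells had too few Smad6 UMIs to count it as measured, with 8 and 25 in macrophages and 12 and 17 in Leydig cells. No test of the difference between classes was possible with 1 library per genotype.

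The genes with the most similar profile were sought over 16 points, 8 classes in 2 libraries, among 12727 genes. These points share libraries and depth, and the correlations are descriptions. Id1 and Id3 were among each other's closest, with a Pearson r of 0.97, next to Sparcl1 for Id1 (0.98) and Cd200 for Id3 (0.97). Smad6 had no gene above Grk6 (0.85) and Ext1 (0.84), lower values than for any other member. The points include the Sertoli values on which Smad6 was picked, so nothing is read from its lower correlations. The closest to Smad7 were Nedd9 (0.91) and Myo18a (0.90), and to Id2 Mir99ahg (0.95) and Gm2a (0.95). For the ligands they were Cope (0.93) and Hspa8 (0.92) with Bmp2, and Eml1 (0.98) and Tns2 (0.97) with Bmp4. For the receptors they were Dync2h1 and Tenm3 (both 0.96) with Bmpr1a, Cacna1a (0.92) and Fancc (0.91) with Bmpr1b, and Stard5 (0.96) and Tbc1d12 (0.95) with Bmpr2.

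Over all cells of each library, Smad6 was at 10.0 CPM in control against 37.8 CPM in knockout cells, and Id3 at 195 and 497 CPM. These totals mix the levels within classes with their sizes, since Sertoli cells made up 35.8% of control and 61.7% of knockout cells. Bmpr1a was at 209 and 217 CPM over all cells, while its level was lower in the knockout in Sertoli, interstitial stromal and peritubular myoid cells alike. Genes on the opposite strand overlap Bmp4 (Gm15217 and Gm15222) and Bmpr1a (Gm17110), but they had at most 28 UMIs in the Sertoli cells of either library. Whether the counting used the strand is not given in the sources used here.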

How the data were processed

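Testis cells of 1 control and 1 knockout library were counted as UMIs on mm10 by Cell Ranger (7.1.0, per the file headers), and the build is per the submitters' processing notes. The deposited files hold raw UMI counts for every barcode, 1707157 and 1477364 barcodes with 146528736 and 112746953 UMIs. The options of the counting are not given in the sources used here.

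Cells had at least 1000 UMIs and 500 genes and at most 20% mitochondrial UMIs. Scrublet removed 495 control cells (4.41%) and 275 knockout cells (2.53%). Its automatic call marked 0 knockout cells, so the score limit found in the control was applied to both libraries, which was decided once these calls were known. Both libraries were clustered together with scanpy 1.11.5 (10000 UMIs per cell, log scale, 2000 variable genes, 30 components, 15 neighbours, Leiden resolution 1, leidenalg 0.10.2), which gave 30 clusters. A cluster took a class name when at least 3 markers of the class were 1.5-fold above the rest and in at least 20% of its cells. Details of this rule were settled after seeing the clusters, and cluster genes are not results.

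UMIs were summed per class and library and given as CPM with exact Poisson intervals. Ratios are log2 of knockout over control with 0.5 added, with exact conditional 95% intervals (scipy 1.17.1). A gene was measured with at least 30 UMIs in the higher library. Shares of cells have Clopper-Pearson intervals. All intervals, and the limits from 3 counts for a count of 0, cover counting error only. On simulated Poisson counts the ratio intervals held the true value for 95.6% of unchanged genes among 15201 in Sertoli cells. The intervals assume such counts, so this checks the calculation only. Counts clumped in a few cells were not simulated. Genes were named by rule: the 10 members, Psma7, pathway genes past 2-fold with an interval excluding 0 in Sertoli cells, the 2 highest and 2 lowest pathway ratios elsewhere, and the 2 most similar genes of each member on log2(CPM + 1) among those reaching 20 CPM. Some pathway genes that met this rule are counted but not reported here by name. The members and the lists (7 pathway lists, 23 immediate-early genes, markers of 14 classes) were chosen with earlier results of these data known. Alternatives covered cell calling, doublets, clustering, free RNA, scaling and thresholds.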

Additional observations from a re-analysis of the deposited data

Results flagged for a closer look

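Bmp2 differed in opposite directions between classes. Its log2 ratio of knockout over control was 1.89 in peritubular myoid cells, -1.19 in endothelial cells and -2.66 in macrophages, and the difference between the classes was not tested. In each of the 3 classes few cells held the UMIs: 1 control cell held 10 of 25 in peritubular myoid cells, 59 of 84 in endothelial cells and 45 of 77 in macrophages. Without the richest cell of each library the ratios were 2.40 in peritubular myoid cells, 0.14 in endothelial cells and -1.75 in macrophages.

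A cluster that took no class name, with 18 control and 191 knockout cells, held ID transcripts outside the classes compared. Its log2 ratios were 1.24 for Id1, 0.90 for Id2 and 1.02 for Id3. Its Id3 levels were 413 CPM (control) and 845 CPM (knockout), beside 184 and 603 CPM in free RNA. The median depth of these cells was 1917 and 1680 UMIs. By the Sertoli markers in them, free RNA could make up at most 104% of their control and 61.1% of their knockout UMIs, and its part in the ratios was not tested.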

How the results depend on the processing

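No paired analysis was possible because each genotype had 1 library and the labels give no replicate numbers. Smad6 in Sertoli cells, picked on this contrast, had a log2 ratio of 2.39 to 2.89 over 16 alternatives, the lowest in cluster 14 alone (2.39). Its ratios in single clusters with at least 50 cells of each library ran from 1.86 to 3.80. Id3 in Sertoli cells had a ratio of 1.33 to 1.57 over the alternatives. Reversed ratios were Id3 in undifferentiated spermatogonia (-1.34 with measured free RNA subtracted) and Bmp2 in endothelial cells (0.14 without the richest cell of each library). The counts of members and pathway genes that follow lack the share of all genes under each alternative, so nothing is read from them. Members at least 2-fold higher in Sertoli cells (4) numbered 2 with each library clustered alone, 2 in cluster 14 alone and 7 at 1.5-fold. Those in undifferentiated spermatogonia (2) numbered 1 with doublets kept, 1 with at least 100 UMIs, and 0 with either free RNA subtraction or with clustering done without proteasome, division and immediate-early genes; with measured free RNA subtracted, Id2 had a larger ratio (2.59) but under 30 UMIs. Pathway genes in Sertoli cells numbered 16 higher (8) and 6 lower (3) at 1.5-fold, 5 lower with either free RNA subtraction and 0 lower in cluster 14 alone. In undifferentiated spermatogonia 11 were higher (7) at 1.5-fold and 4 with at least 100 UMIs. Lower ones (2) numbered 4 at 1.5-fold, 4 with 10% free RNA, 5 as a mean over cells and 5 with that clustering. Of 1099 log2 ratios under alternatives, 966 stayed within the interval given and 131 moved outside it. The other kinds of value moved more often: 478 of 1720 levels, 243 of 320 shares of cells and 105 of 440 counts. The cause was not tested. Depth limits Bmp2, Bmp4 and Bmpr1b in Sertoli cells and Smad6 in Leydig cells and macrophages. The alternatives of measured free RNA, cluster 14, cluster 1 and richest cells were chosen after seeing the data.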

Other observations

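Rete or mesothelial epithelium, with 16 control and 14 knockout cells, held Bmpr1b at 187 and 90.2 CPM, Smad6 at 59.7 and 61.5 CPM and Id3 at 1206 and 1165 CPM. Pericytes, with 42 and 19 cells, held Bmp2 at 79.7 and 46.0 CPM and Id3 at 795 and 814 CPM. Both classes were too small for the comparisons above.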
